A study of Arabidopsis thaliana with 9 samples.

Results

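RCA (AT2G39730), LHCB4.1 (AT5G01530) and LHCB4.2 (AT3G08940) are nuclear genes of Arabidopsis thaliana whose products work in the chloroplast. They were taken by name, and each had 1 probe set on the arrays, so they make up 3 of 22746 probe sets tested and 3 of 13286 genes with a named probe set. RCA encodes Rubisco activase, an ATPase that frees the active sites of Rubisco, the enzyme that fixes carbon dioxide, from inhibitory sugar phosphates. LHCB4.1 and LHCB4.2 encode isoforms of CP29, a chlorophyll-binding antenna protein that sits between the core of photosystem II and its outer light-harvesting complexes. Arabidopsis embryos are green while the seed fills and lose chlorophyll as it matures, and a dry seed keeps a store of transcripts made before it dried.

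RNA came from freshly harvested mature dry seeds, taken at the end of seed maturation, and was measured on 9 Affymetrix arrays, 3 for each of 3 genotypes. NILDOG1 is a near isogenic line, labelled NILDOG1-Cvi, in which expression of the dormancy gene DOG1 (DELAY OF GERMINATION 1) was labelled strong. In the dog1-1 mutant DOG1 expression was labelled absent, and in the wild type Ler (Landsberg erecta), the labelled genetic background of all 3 genotypes, it was labelled low. Each replicate was a bulk of 8 plants, and the replicates are biological per the labels. LHCB4.1 lies near the start of chromosome 5, in a stretch where both NILDOG1 and dog1-1 may carry sequence of the Cvi accession, and no genotyping was used here. No probe set carried the name DOG1 in the annotation, so the labelled DOG1 levels were not checked here.

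Every array gave 1 log2 signal for each probe set, and a difference of 1 between such signals is a doubling. Signals of different probe sets are not comparable as levels. Differences between members within an array, and summed signals of markers, are therefore read only for how they differ between genotypes. The array medians lay between 3.51 and 3.59. The TrpnX controls, which have no target in seeds, reached 2.56, and a mean at or below that was taken as background. The hybridization controls averaged 9.12 to 9.27 on the NILDOG1 arrays, 8.81 to 9.14 on the dog1-1 arrays and 9.19 to 9.57 on the Ler arrays. The control for 25S ribosomal RNA was low on dog1-1 replicate 3 (8.04) and Ler replicate 1 (7.33), against 9.86 to 11.9 on the other arrays. The 3′ minus 5′ difference of the ubiquitin control, a measure of RNA integrity, was -0.22 to -0.14 in NILDOG1, -0.54 to -0.27 in dog1-1 and -0.25 to -0.16 in Ler. For the GAPDH control it was 0.072 to 0.34, 0.079 to 0.27 and 0.24 to 0.30 in the same order. For the actin control it was 0.71 to 0.92, 0.65 to 1.29 and 0.74 to 0.95. The genotypes overlapped for GAPDH and actin. The results are given below also on the scale of the hybridization controls and without both arrays of low 25S signal; the part of the ubiquitin difference in them was not tested. PAP85, a storage protein gene of the embryo, averaged 13.50 ± 0.061 in NILDOG1, 13.54 ± 0.030 in dog1-1 and 13.45 ± 0.066 in Ler (SD, n = 3 each), so its transcript was abundant in all 3 genotypes.

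RCA was high in dog1-1 and low in both other genotypes. Its signals were 4.16, 4.56 and 4.31 in NILDOG1, 5.66, 5.93 and 5.86 in dog1-1, and 4.41, 4.39 and 4.099 in Ler. Every dog1-1 array lay more than a doubling above every array of the other genotypes, while the NILDOG1 and Ler arrays overlapped and all arrays were above background. The means were 4.34 ± 0.20 in NILDOG1, 5.82 ± 0.14 in dog1-1 and 4.299 ± 0.17 in Ler (SD, n = 3 each). RCA rose 2.86-fold in dog1-1 against Ler (95% interval 2.35 to 3.48; log2 change 1.52, SE 0.13; limma, adjusted p = 8.91e-06). In these bulk samples a change in the number of cells with a transcript and a change in transcript per cell cannot be told apart.

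LHCB4.1 ran the other way. Its signals were 9.13, 8.95 and 8.79 in NILDOG1, 8.26, 8.08 and 8.07 in dog1-1, and 8.31, 9.18 and 8.77 in Ler. The dog1-1 arrays were the 3 lowest of the 9, but the highest of them lay close under Ler replicate 1, and the Ler arrays spread more widely than those of the other genotypes. The means were 8.96 ± 0.17 in NILDOG1, 8.14 ± 0.11 in dog1-1 and 8.75 ± 0.43 in Ler. LHCB4.1 fell by 0.62 on the log2 scale in dog1-1 against Ler (SE 0.18, 1.53-fold lower, 95% interval 1.17 to 2.01; limma, adjusted p = 0.0413).

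LHCB4.2 was higher in dog1-1, by less than RCA. Its signals were 5.74, 6.07 and 5.85 in NILDOG1, 6.80, 6.605 and 6.27 in dog1-1, and 6.25, 5.95 and 5.99 in Ler. The dog1-1 arrays were again apart from the others, this time above them, with dog1-1 replicate 3 just over Ler replicate 1. The means were 5.89 ± 0.17 in NILDOG1, 6.56 ± 0.27 in dog1-1 and 6.06 ± 0.16 in Ler. LHCB4.2 rose 1.41-fold in dog1-1 against Ler (95% interval 1.13 to 1.75; log2 change 0.50, SE 0.14; limma, adjusted p = 0.0409).

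**Figure D1:**
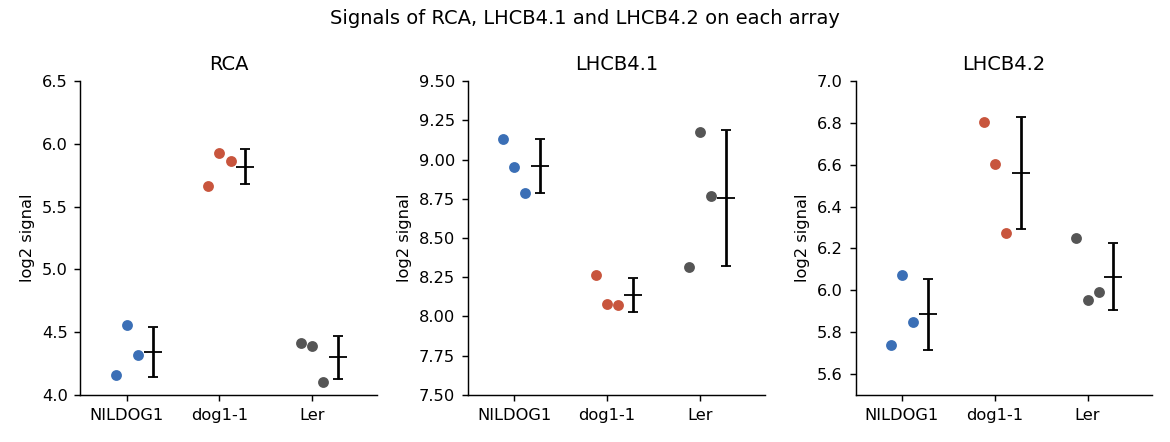
Log2 signal of RCA, LHCB4.1 and LHCB4.2 on each array (points), by genotype, with the mean and SD of 3 replicates (bars); each panel has its own axis, which does not start at 0. The dog1-1 points lie above all others for RCA and LHCB4.2 and below all others for LHCB4.1, by a wide margin for RCA (5.66 or more against 4.56 or less).

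Over the whole array design 13.6% of probe sets were called at an adjusted p under 0.05 in this comparison (8.33% higher and 5.28% lower in dog1-1), and 25.6% had an unadjusted p under 0.05; the 3 calls among 3 members stand against these shares. The members were chosen with such results known, and the count is a description. The median change of all probe sets was -0.040. For all 3 members the dog1-1 and Ler arrays were free of overlap, as they were for 26.9% of all probe sets.

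The calls of the antenna genes sat close to the threshold, that of RCA far from it. When any 1 of the 9 arrays was left out, RCA passed in 9 of 9 fits with a log2 change of 1.42 to 1.60. LHCB4.1 passed in 1 of 9 (without Ler replicate 1, -0.84), with a change of -0.40 without Ler replicate 2 and an adjusted p of up to 0.134. LHCB4.2 passed in 3 of 9 (without NILDOG1 replicate 2, dog1-1 replicate 3 or Ler replicate 1), with changes of 0.37 to 0.64 and an adjusted p of up to 0.133. When each array was centred on its hybridization controls, the median over the whole table moved to 0.31 and the share of higher among the calls to 93.7%, against 61.2% with the deposited scaling. On that scale RCA changed by 1.87 (adjusted p = 1.55e-08), LHCB4.2 by 0.85 (adjusted p = 4.14e-04) and LHCB4.1 by -0.26 (adjusted p = 0.318), so that LHCB4.1 no longer passed. Without both arrays of low 25S signal all 3 passed, with changes of 1.55 for RCA (adjusted p = 4.72e-04), -0.80 for LHCB4.1 (adjusted p = 0.0158) and 0.73 for LHCB4.2 (adjusted p = 0.00882). With the replicate number as a block LHCB4.1 had an adjusted p of 0.0627. The sign of all 3 changes was the same under all 17 alternatives tried.

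**Figure D2:**
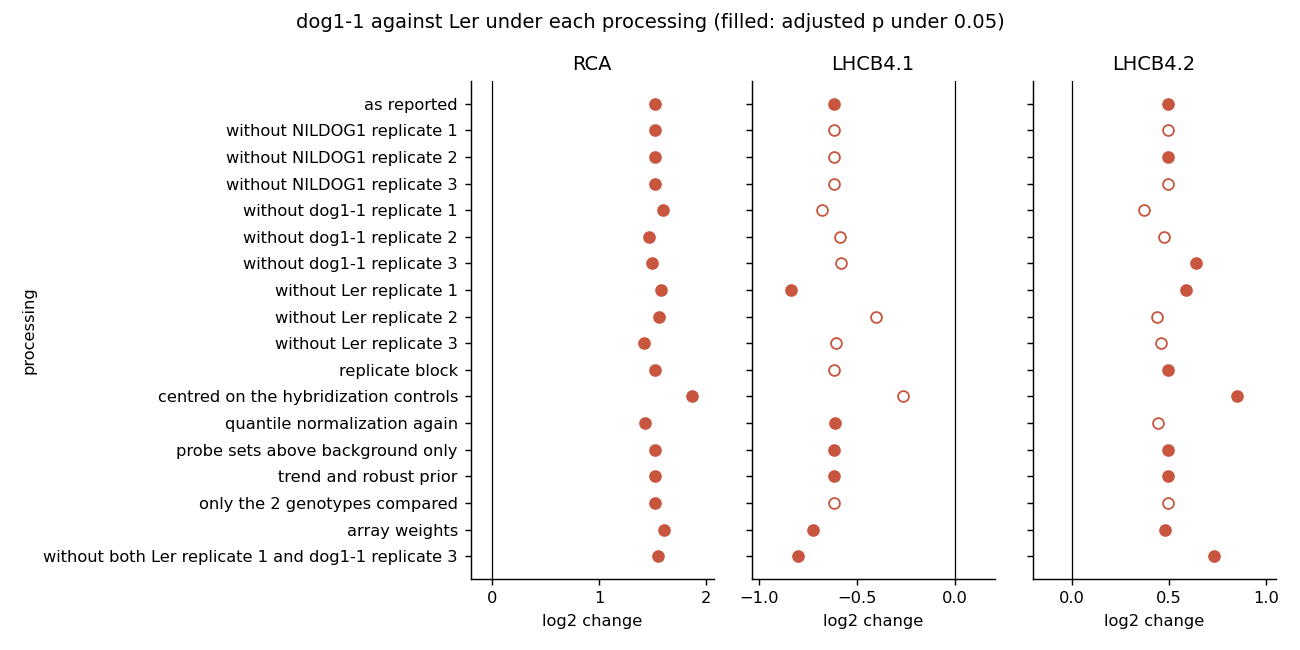
Log2 change in dog1-1 against Ler (horizontal axis) of RCA, LHCB4.1 and LHCB4.2 as reported and under 17 other ways of processing (rows); filled points passed an adjusted p of 0.05. RCA passed in every row, LHCB4.1 in 6 and LHCB4.2 in 9 of the 17 alternatives, and no point crossed 0.

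A difference between members within 1 array does not change when all log2 signals of that array are shifted by the same amount. Quantile normalization is not such a shift. Applied again, it moved the change in dog1-1 against Ler from 1.517 to 1.427 for RCA and from -0.616 to -0.612 for LHCB4.1. The change of LHCB4.2 moved from 0.496 to 0.445 and no longer passed (limma, adjusted p = 0.0859). The differences below were computed with the deposited values only. LHCB4.1 minus LHCB4.2 was 3.39, 2.88 and 2.94 in NILDOG1, 1.46, 1.48 and 1.80 in dog1-1, and 2.06, 3.22 and 2.78 in Ler. The dog1-1 arrays had the 3 smallest differences, with no overlap, and NILDOG1 and Ler overlapped. The mean was 1.11 log2 units smaller in dog1-1 than in Ler (1.58 ± 0.19 against 2.69 ± 0.58, n = 3 each; two-sided exact permutation test, p = 0.10). With 3 arrays against 3 that is the smallest p the test can give, so 0.05 cannot be reached. Leaving out single arrays of these genotypes gave -1.42 to -0.84.

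RCA minus LHCB4.1 was -2.60, -2.15 and -2.21 in dog1-1, against -3.90, -4.79 and -4.67 in Ler, a change of 2.13 without overlap (two-sided exact permutation test, p = 0.10, n = 3 each). RCA minus LHCB4.2 was -1.14, -0.68 and -0.41 in dog1-1, against -1.84, -1.57 and -1.89 in Ler, a change of 1.02, also without overlap (exact p = 0.10). The probe sets thus changed unequally between dog1-1 and Ler on these arrays, without a p below 0.10 for any of the 3 differences, which share their probe sets. For the differences that include LHCB4.1 the lack of overlap and the p of 0.10 were fixed in advance. The arrays of dog1-1 and Ler were already apart for each member, in opposite directions, so these differences restate the single genes and are no separate support. Between NILDOG1 and Ler all 3 differences overlapped, with changes of 0.38, -0.16 and 0.22 in the order above (exact p = 0.40, 0.80 and 0.20).

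**Figure D3:**
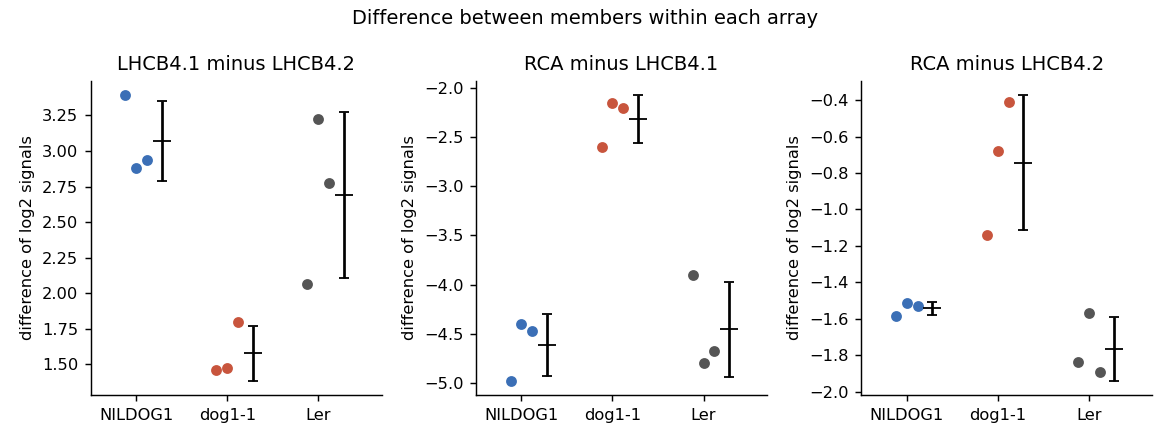
Difference of log2 signals between 2 members on the same array (points), by genotype, with mean and SD of 3 replicates (bars). The dog1-1 points stand apart from those of NILDOG1 and Ler in every panel, and NILDOG1 and Ler overlap in every panel. In the panels with LHCB4.1 the separation of dog1-1 follows from the signals of the single genes.

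In NILDOG1 none of the 3 genes passed against Ler with limma, and none had an unadjusted p under 0.05, where 0.545% of all probe sets passed (0.321% higher and 0.224% lower) and 5.9% had such an unadjusted p. The arrays overlapped for all 3, and were free of overlap for 9.32% of all probe sets. RCA changed by 0.044 (SE 0.13, 95% interval -0.24 to 0.33, adjusted p = 0.987). LHCB4.1 changed by 0.20 (SE 0.18, interval -0.19 to 0.60, adjusted p = 0.943). LHCB4.2 changed by -0.18 (SE 0.14, interval -0.49 to 0.14, adjusted p = 0.940). The RCA interval excludes a rise of the size seen in dog1-1. After centring on the hybridization controls the changes were 0.21, 0.37 and -0.0099 in the same order, none passed, and 81.6% of the calls over all probe sets were higher, against 58.9% with the deposited scaling.

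NILDOG1 against dog1-1 sets the strong label of DOG1 against its absence, and uses the same dog1-1 arrays as the comparison with Ler. RCA was 2.78-fold lower in NILDOG1 (95% interval 2.28 to 3.38; limma, adjusted p = 1.11e-05). LHCB4.1 was 1.76-fold higher in NILDOG1 (interval 1.34 to 2.32, adjusted p = 0.00930), and its call ended without NILDOG1 replicate 1 (adjusted p = 0.0513), and also on the scale of the hybridization controls (adjusted p = 0.0613). LHCB4.2 was 1.60-fold lower in NILDOG1 (interval 1.28 to 1.99, adjusted p = 0.00798). For all 3 genes the arrays did not overlap, as for 27% of all probe sets. Of all probe sets 12.5% were called, 4.94% as higher and 7.52% as lower in NILDOG1, and 23.6% had an unadjusted p under 0.05. The share of higher among these calls was 39.6%, and 17.2% after centring on the hybridization controls. In the order of mean levels dog1-1 was therefore first for RCA and LHCB4.2 and last for LHCB4.1. Against Ler its place passed in 9 of 9 fits without 1 array for RCA, but in 1 of 9 for LHCB4.1 and 3 of 9 for LHCB4.2. The order of NILDOG1 and Ler was not resolved for any of the genes.

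Around these genes the annotation covered the pathway thinly. A gene without a named probe set may still have one on the arrays that was not listed or was tied to several genes. Below, measured means with a named probe set. Of 136 other nuclear genes of photosynthesis, chlorophyll metabolism and its control that were listed, 24 had a named probe set. In dog1-1 against Ler limma called 5 of them higher and 0 lower, and 19 did not pass; of all 24, 9 were higher and 1 was lower at an unadjusted p under 0.05. That is 20.8% higher, where 8.33% of all probe sets were, and their median change was 0.13, against -0.040 over all. After centring on the hybridization controls 11 rose and 0 fell, where 21.3% of all probe sets were called higher, and their median became 0.48 against 0.31 over all. In NILDOG1 against Ler 0 rose, 0 fell and 24 did not pass, and none had an unadjusted p under 0.05. In NILDOG1 against dog1-1 0 rose and 8 fell, where 7.52% of all probe sets were lower, with 5, 5, 4 and 5 calls in all without NILDOG1 replicate 1, 2 or 3 or dog1-1 replicate 2.

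LHCB4.3 (AT2G40100), the remaining gene of the LHCB4 family, was the only 1 of the other 22 listed antenna genes with a named probe set. Its signals were 4.05, 4.35 and 3.79 in NILDOG1, 5.08, 5.12 and 5.20 in dog1-1, and 4.51, 3.98 and 3.96 in Ler. All dog1-1 arrays lay above the others, as for RCA and LHCB4.2 and unlike LHCB4.1. LHCB4.3 rose by 0.98 (SE 0.16, adjusted p = 0.00145) in dog1-1 against Ler. The 3 LHCB4 genes are related in sequence, and whether their probes also bind each other's transcripts was not tested; none of the 3 members' probe sets has a suffix that marks shared probes.

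Among the genes that work with Rubisco, SBPASE, a phosphatase of the Calvin cycle, averaged 3.31 ± 0.17 in NILDOG1, 4.09 ± 0.089 in dog1-1 and 3.46 ± 0.14 in Ler and rose by 0.64 in dog1-1 (adjusted p = 0.00229). It was the 1 of 3 measured Calvin cycle genes that passed, where 13.6% of all probe sets were called in dog1-1 against Ler. PRK, the kinase that makes the substrate of Rubisco, was near background at 2.60 ± 0.15 in dog1-1 and 2.67 ± 0.092 in Ler. On the list of Rubisco assembly factors and chaperonins 1 of 4 passed. That gene, AT3G47650, rose by 0.99 (4.68 ± 0.40 in dog1-1 against 3.69 ± 0.099 in Ler, limma, adjusted p = 0.0019). Lists this short say little beside the share over all probe sets. The chaperonin gene Cpn60beta2 had 6.27 ± 0.15 in dog1-1 and 6.11 ± 0.052 in Ler.

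Of 6 measured genes of chlorophyll synthesis 2 rose in dog1-1 and 0 fell, where 8.33% of all probe sets rose and 5.28% fell. With so few genes the count is a description. CHLM, the methyltransferase that acts on magnesium protoporphyrin, rose by 0.80 (4.88 ± 0.14 in dog1-1 against 4.09 ± 0.17 in Ler, adjusted p = 6.11e-04). HEMB1, an enzyme of the earlier tetrapyrrole steps, rose by 0.47 (7.03 ± 0.060 against 6.56 ± 0.14, adjusted p = 0.00713). PORB, which reduces protochlorophyllide in the light, had 3.13 ± 0.21 in dog1-1 and 3.32 ± 0.31 in Ler and did not pass. Neither of 2 measured genes of chlorophyll breakdown passed, and NOL, a chlorophyll b reductase gene, had 4.70 ± 0.25 in dog1-1 and 4.62 ± 0.15 in Ler.

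The photosystem genes did not pass between dog1-1 and Ler. All 3 measured genes of photosystem II had an unadjusted p under 0.05 and were higher in dog1-1, where 25.6% of all probe sets had such a p. PSB27, an assembly factor and the brightest of them, had 10.86 ± 0.16 in dog1-1 and 10.61 ± 0.090 in Ler (limma, adjusted p = 0.134). For PSBW, named after its values were seen, the arrays overlapped (6.92 ± 0.075 in dog1-1 and 6.37 ± 0.52 in Ler). Of 2 genes of photosystem I, PSAE-1 had 2.84 ± 0.13 in dog1-1 and 3.10 ± 0.22 in Ler, while PSAN, named after its values were seen, had 2.83 ± 0.13 in dog1-1 and 2.50 ± 0.023, at background, in Ler (adjusted p = 0.067). ATPC2, for a gamma subunit of the chloroplast ATP synthase, had 4.62 ± 0.19 in dog1-1 and 5.03 ± 0.17 in Ler (adjusted p = 0.0526). HYH, a light-signalling bZIP factor gene and the 1 measured regulator of 12, was near background at 2.64 ± 0.13 in dog1-1 and 2.62 ± 0.032 in Ler. None of the 8 listed genes for antenna insertion and antenna kinases had a named probe set. The 8 that fell in NILDOG1 against dog1-1 were LHCB4.3, SBPASE, AT3G47650, CHLM, HEMB1 and PSB27 with PSAN, at background in NILDOG1, and PSBW, also named after its values were seen.

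**Figure D4:**
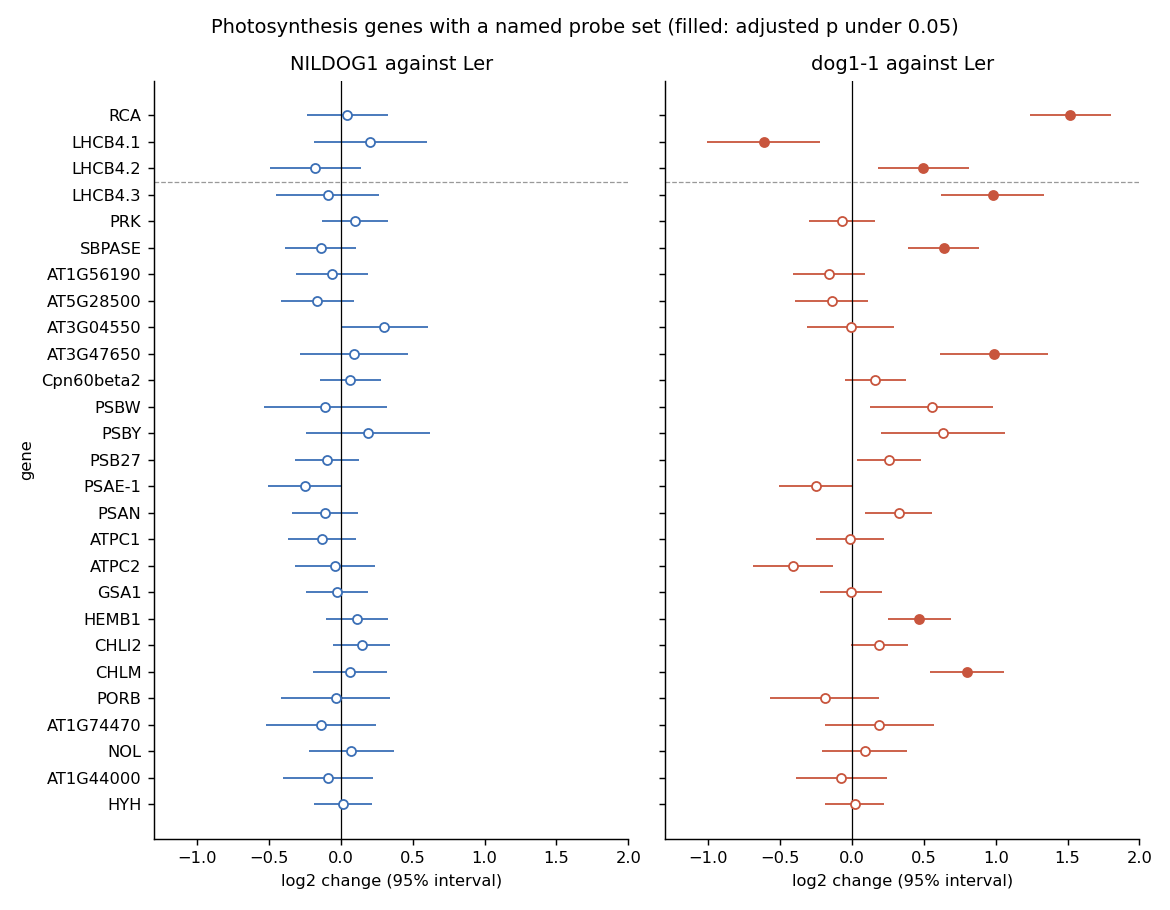
Log2 change with its 95% interval for the 3 members (above the dashed line) and the 24 other photosynthesis genes with a named probe set, in NILDOG1 against Ler (left) and dog1-1 against Ler (right); filled points passed an adjusted p of 0.05. In dog1-1 RCA lies farthest to the right at 1.52 and LHCB4.1 is the one filled point below 0, while no point is filled in NILDOG1.

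Markers of other seed tissues with a named probe set were also few. Of 4 seed coat markers 2 were measured, and their summed signal on the log2 scale was 3.70 to 3.90 in NILDOG1, 3.63 to 3.85 in dog1-1 and 3.72 to 3.92 in Ler. BAN, which acts in seed coat pigment synthesis, had 2.83 ± 0.21 in dog1-1 and 2.84 ± 0.10 in Ler. DFR, the other one and a gene of the same pathway, was named after its values were seen. It had 2.57 ± 0.097 in dog1-1 and 2.81 ± 0.15 in Ler, without overlap (limma, adjusted p = 0.166). The means of BAN and DFR lay little above the background of 2.56 in every genotype. Their summed signal therefore says little about the seed coat. Of 3 endosperm markers 2 were measured, AGL62 at background in all genotypes, and their summed signal was 4.15 to 4.295 in NILDOG1, 3.91 to 4.19 in dog1-1 and 4.32 to 4.50 in Ler. IKU2, a receptor kinase gene of the endosperm, fell by 0.42 in dog1-1 against Ler (adjusted p = 0.0153). The part of tissue proportions in the changes of RCA and the LHCB4 genes was not tested.

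Since LHCB4.1 lies where Cvi sequence may be present, the 10 nearest genes with a named probe set on each side (AT5G01300 to AT5G01750) were set beside it. In NILDOG1 against Ler 1 of these 20 rose and 1 fell, where 0.321% of all probe sets rose and 0.224% fell. In dog1-1 against Ler 1 rose and 5 fell with the deposited scaling, where 8.33% of all probe sets rose and 5.28% fell. In NILDOG1 against dog1-1 4 rose and 0 fell, where 4.94% of all probe sets rose and 7.52% fell. AT5G01470 rose in both lines, by 0.80 in NILDOG1 and 0.66 in dog1-1, and AT5G01750 fell in both, by 0.79 in NILDOG1 and 1.33 in dog1-1. AT5G01300 fell in dog1-1 by 0.76 (11.93 ± 0.092 against 12.69 ± 0.045 in Ler). APTX, AT5G01660 and AT5G01670, named after their values were seen, also fell in dog1-1 against Ler (-0.36, -0.48 and -0.56). LHCB4.1 itself had 8.96 in NILDOG1 and 8.75 in Ler and did not pass in NILDOG1, unlike the pair that changed in both lines. AT5G01300, APTX, AT5G01660 and AT5G01670 likewise passed in dog1-1 and not in NILDOG1 against Ler. APTX nevertheless changed by a similar amount in both lines, -0.34 in NILDOG1 and -0.36 in dog1-1. AT5G01300 changed by -0.26 in NILDOG1, AT5G01660 by -0.0097 and AT5G01670 by -0.031. TAAC, the nearest gene with a named probe set on 1 side, is the gene of a thylakoid ATP/ADP carrier and was named for that after its values were seen. It had 8.37 ± 0.0033 in NILDOG1, 8.39 ± 0.029 in dog1-1 and 8.34 ± 0.058 in Ler. A sequence difference under the LHCB4.1 probes and a change of transcript level cannot be told apart in these values.

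**Figure D5:**
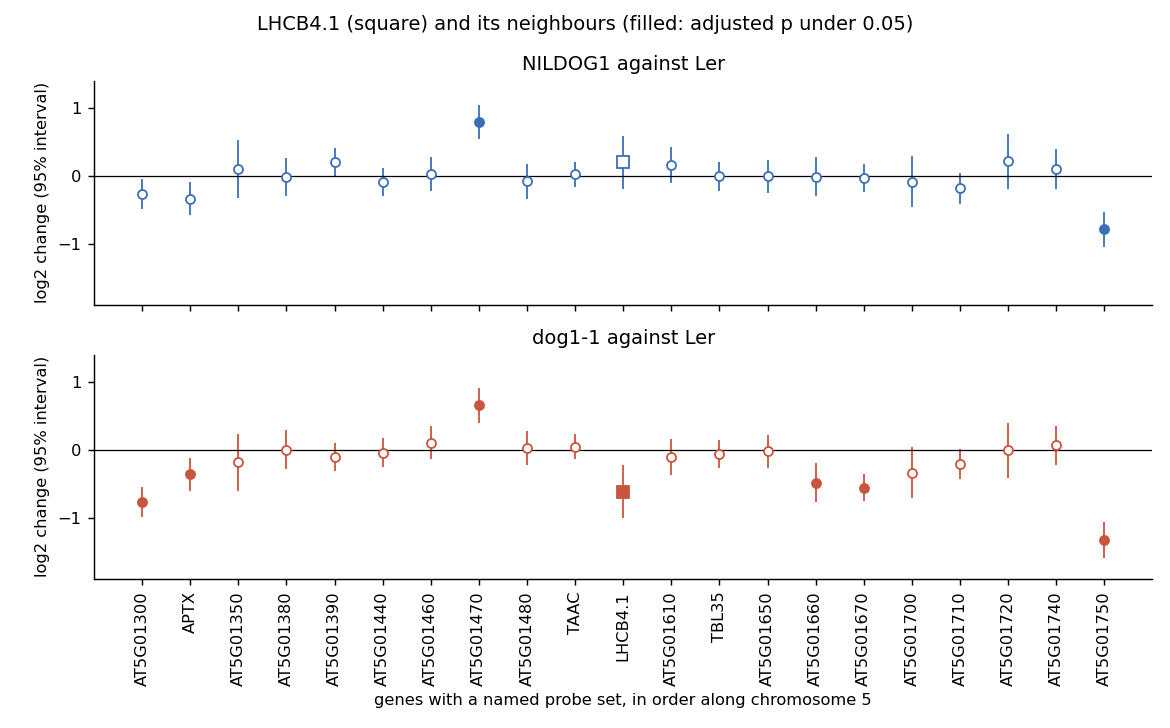
Log2 change with its 95% interval of LHCB4.1 (square) and the 10 genes with a named probe set on each side, in order along chromosome 5, in NILDOG1 against Ler (top) and dog1-1 against Ler (bottom); filled symbols passed an adjusted p of 0.05. Only AT5G01470 and AT5G01750 are filled in both panels, and LHCB4.1 is filled at -0.62 in dog1-1 and open at 0.20 in NILDOG1.

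The genes most like each member were found by the root mean square distance between log2 profiles over the 9 arrays, each centred on its own mean, among 13285 genes. RCA was closest to GSTU20, a glutathione transferase gene (distance 0.12, r = 0.99), which had 4.28 ± 0.21 in dog1-1 and 2.85 ± 0.17 in Ler, followed by AT5G06570, CCL, AT3G04840 and AT3G60245 (r = 0.98 to 0.99). LHCB4.1 was closest to AT4G25580 (distance 0.10, r = 0.97), then AT4G09150, AT3G26510, AT5G07340 and AT1G69890. LHCB4.2 was closest to AT3G45260 (distance 0.093, r = 0.96), then AT1G56080, TRXF2, AT5G64230 and AT3G03240; TRXF2 (AT5G16400) encodes a chloroplast thioredoxin and averaged 3.92 ± 0.078 in NILDOG1, 4.55 ± 0.20 in dog1-1 and 4.104 ± 0.0049 in Ler. Seen from RCA, LHCB4.2 stood at rank 502 and LHCB4.1 at rank 13056. The 9 arrays fall into genotypes, so these r values mostly restate the genotype means. With the genotype means removed, r over 9 arrays was -0.25 for RCA and LHCB4.1, 0.23 for RCA and LHCB4.2 and -0.30 for LHCB4.1 and LHCB4.2.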

How the data were processed

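The deposited table gives a log2 signal for each probe set on each array. The submitters' processing notes name RMA for this step; its version and the chip definition file were not given in the sources used here, and the log base was read from the range of the values (1.68 to 14.4). Of 22810 probe sets, 64 Affymetrix controls were left out. Genes were named from the platform annotation by gene identifier and matched to a current gene table (TAIR10.1): 13436 probe sets had 1 locus, 503 several genes and 8730 were not listed. Where a gene had several probe sets, the one with the highest mean was used. The 3 genotypes were fitted together with limma 3.58.1 in R 4.3.3 (lmFit, eBayes, genotype only, 6 residual degrees of freedom), with Benjamini-Hochberg adjustment over 22746 probe sets and a threshold of 0.05. Exact permutation tests used scipy 1.17.1. The fit was tested on simulated data. The members, lists and tests were chosen with earlier results of these data known. Named genes were the members, up to 2 members per list and direction past the threshold in a comparison with Ler (or the brightest where none passed), the 5 most alike genes, and up to 3 neighbours of LHCB4.1. PRK, Cpn60beta2, PORB and AGL62, which did not pass against Ler, were named outside this rule. Others are marked as chosen later. Plants were grown in randomized complete blocks per the labels, which tie no replicate number to a block. The numbers were not taken to pair the arrays, since after removal of genotype means, arrays of the same number correlated at -0.23 to 0.030 (0 of 9 pairs over 0.1). Alternatives were leaving out each array or 2 arrays together, a replicate block, centring on 18 hybridization control probe sets, quantile normalization, a background filter, a trended robust prior, fits of 2 genotypes alone and array weights. No member sequence was in the sources used here, and none is printed. The number of arrays limits the precision.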

Additional observations from a re-analysis of the deposited data

How the results depend on the processing

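All RCA changes involving dog1-1, and those of LHCB4.2 in NILDOG1 against dog1-1, passed under all 17 alternatives. LHCB4.1 in dog1-1 against Ler did not pass with the replicate block (-0.62, adjusted p = 0.0627), with the 2 genotypes alone (-0.62, adjusted p = 0.0874) or after centring on the hybridization controls (-0.26), and ran from -0.84 to -0.40 when single arrays were left out. LHCB4.2 in dog1-1 against Ler did not pass after quantile normalization (0.44) or with the 2 genotypes alone (0.50, adjusted p = 0.0744), and ran from 0.37 to 0.64 when single arrays were left out. Without both Ler replicate 1 and dog1-1 replicate 3, LHCB4.1 (-0.80, adjusted p = 0.0158) and LHCB4.2 (0.73, adjusted p = 0.00882) passed. LHCB4.1 in NILDOG1 against dog1-1 was 0.64 after that centring and 0.73 to 0.90 without single arrays. The changes in NILDOG1 against Ler, none of which passed, turned sign for LHCB4.1 without Ler replicate 1, alone or together with dog1-1 replicate 3 (-0.017 in both, highest 0.42 without single arrays), and for RCA without NILDOG1 replicate 2 (-0.063) or Ler replicate 3 (-0.056; highest 0.14). The number of probe sets called in dog1-1 against Ler was 3095, 2182 to 3059 without single arrays, 5173 after centring on the hybridization controls (325 lower) and 1981 without both Ler replicate 1 and dog1-1 replicate 3; in NILDOG1 against Ler it was 124, 70 without that pair and 65 to 137 without single arrays (65, 67 and 80 without NILDOG1 replicate 1, NILDOG1 replicate 2 and Ler replicate 3). The other photosynthesis genes called in dog1-1 against Ler numbered 5 and became 11 after that centring; in NILDOG1 against dog1-1 they numbered 8, and 4 to 8 without single arrays. The replicate block changed no other call of the members, and the cause of these shifts was not tested. Values near background have no downward room.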

Other observations

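Genes with a named probe set beside RCA and LHCB4.2 were read the same way as those beside LHCB4.1, which was decided after seeing the data. Of the 20 genes nearest to RCA 0 passed in NILDOG1 against Ler, and in dog1-1 against Ler 2 rose and 1 fell, 3 of 20 where 13.6% of all probe sets were called, so this count is near the background. AT2G39920 rose by 2.18 in dog1-1 (5.62 ± 0.19 against 3.44 ± 0.45 in Ler, limma, adjusted p = 8.27e-06), and AT2G39870 by 1.42, while the nearest such gene on each side of RCA, AT2G39725 and AT2G39750, did not pass. Of the 20 genes nearest to LHCB4.2 0 passed in NILDOG1 against Ler, and in dog1-1 2 rose and 1 fell, again 3 of 20. AT3G09000 fell by 0.92 in dog1-1 (4.73 ± 0.16 against 5.66 ± 0.18 in Ler, limma, adjusted p = 0.00118). AT3G08930, the nearest such gene on 1 side of LHCB4.2, rose by 0.70 in dog1-1 (6.27 ± 0.081 against 5.57 ± 0.064 in Ler, limma, adjusted p = 9.34e-04).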
